A study of Mus musculus with 22 samples.

Results

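The genes described here are 37 of the 24454 gene symbols counted in 22 bulk RNA-seq libraries. They were chosen by name, for the part their proteins play in making ribosomes in the nucleolus, by a rule that uses no measured value, but with earlier results of these data known, so the counts below are not independent of that choice. Their counts were set beside the share of each library that came from *Rn45s*, the gene of the precursor ribosomal RNA. Each library held 25 untreated VE-Cadherin-positive cells, sorted from the aorta-gonad-mesonephros (AGM) region of C57BL/6 mouse embryos, which is where the first blood stem cells arise from endothelium. The sort divided these cells by the surface proteins CD44 and Kit. CD44Neg cells gave 10 libraries, 4 from E9.5, 3 from E10 and 3 from E11. CD44LowKitNeg cells gave 6, 1 from E9.5, 2 from E10 and 3 from E11. CD44LowKitPos cells gave 3, 1 from E9.5 and 2 from E10, and CD44High cells gave 3, all from E11. No label says which libraries came from separate embryos or litters, so the p-values measure the spread between these libraries only.

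Ribosomes are assembled in the nucleolus around the ribosomal RNA that RNA polymerase I transcribes from the repeated rRNA genes. The box C/D and box H/ACA ribonucleoproteins (snoRNPs), each guided by a small nucleolar RNA, place methyl groups and pseudouridines on the new transcript. A large assembly called the small subunit processome folds and cuts it, and 2 further sets of factors mature the small and the large subunit and bring them towards the cytoplasm. Growing and dividing cells make ribosomes at a high rate, and the transcription factor MYC is well known to raise many of these genes.

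The counts were 3912350 to 8657546 per library. *Cd44* separated CD44Neg from the CD44-positive populations but not CD44Low from CD44High, at 29.9 ± 19.5 normalized CPM (mean ± SD, n = 10) in CD44Neg and 254 ± 78.7 (n = 6), 257 ± 85.2 (n = 3) and 268 ± 87.2 (n = 3) in CD44LowKitNeg, CD44LowKitPos and CD44High. *Kit* was at 229.7 ± 50.1 in CD44LowKitPos against 46.9 ± 17.3 in CD44LowKitNeg. Normalized CPM are counts divided by the library size after TMM scaling, on the usual CPM scale, and are not corrected for gene length. In the parentheses that follow, log2 stands for the log2 fold change and SE for its standard error. All 8 endothelial markers had counts in the first 3 populations, whereas in CD44High their sum was 14.3 to 78.8 normalized CPM, against 3518.5 to 8666 in the CD44Neg and CD44LowKitNeg libraries, and *Cdh5*, which encodes VE-Cadherin, was at 0 in all 3. The CD44High libraries also held all 7 macrophage markers, with sums of 1094 to 2980.2 normalized CPM, where no other library exceeded 40.2. Erythroid, mesenchymal and neural markers summed to at most 91.8, 174 and 10.5 normalized CPM in any library. The descriptions of the libraries end in a number that is the same within a stage and differs between stages, so whatever it marks and the stage cannot be told apart. In such pools, fewer cells with a transcript and less of it per cell cannot be told apart either.

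All 37 genes had counts in every population, and all passed the filter on low counts in every fit. Per kilobase of exon, the mean level in CD44Neg ran from 1374 normalized CPM for *Npm1*, the abundant nucleolar chaperone nucleophosmin, through 353 for *Nhp2*, a core protein of the box H/ACA snoRNPs, to 2.25 for *Rrp12*, a factor of small subunit export. Only *Pwp2*, a protein of the small subunit processome, was at 0 in any library, in CD44LowKitNeg replicates 12 and 14, where a count of 0 allows up to 0.393 and 0.347 CPM. For 11 members, among them *Npm1*, *Nop56*, *Fbl* and *Nhp2*, the mouse annotation holds at least 1 pseudogene with 90% or more identity over 300 or more bases, and 10 members share exon sequence with a gene on the opposite strand, for example *Bysl* with *Ccnd3* and *Gnl3* with *Pbrm1*. How the counting treated such reads is not given in the sources used here, so these levels carry that uncertainty.

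A promoter from 250 bases before to 50 bases after the start of the gene was in the RefSeq table (GRCm38.p6) for 33 of the 37 members. The E-box CACGTG, the sequence that MYC and its partner MAX bind, reads the same on both strands. It lay in 7 of these 33 promoters (21.2%) and in 2187 of the 27025 promoters of all genes (8.09%). The match describes the letters only. It is shown in capitals, with up to 10 bases on either side and read along the strand of the gene, because MYC is known to raise genes of this kind and *Myc* is measured here as well.
*Ltv1*, chr10:13193094-13193119, minus strand: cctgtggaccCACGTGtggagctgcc
*Nop2*, chr6:125131813-125131838, plus strand: gtccctggatCACGTGtgttccggtg
*Pes1*, chr11:3963967-3963992, plus strand: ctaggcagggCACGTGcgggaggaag
*Rrn3*, chr16:13780474-13780499, plus strand: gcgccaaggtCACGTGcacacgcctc
*Rrn3*, chr16:13780641-13780666, plus strand: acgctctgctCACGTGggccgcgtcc
*Tsr1*, chr11:74898094-74898119, plus strand: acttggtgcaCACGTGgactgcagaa
*Utp20*, chr10:88826765-88826787, minus strand: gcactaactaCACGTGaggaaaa
*Wdr43*, chr17:71616222-71616247, plus strand: cccgggcgaaCACGTGgctgccgcgg
These are promoters of *Rrn3*, which brings RNA polymerase I to the rRNA genes, of the small subunit factors *Utp20*, *Wdr43*, *Ltv1* and *Tsr1*, and of the large subunit factors *Nop2* and *Pes1*. The first base of the motif stood at −215 and −48 in *Rrn3*, at −60 in *Nop2* and between 3 and 38 bases after the start in the other 5.

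Between CD44Neg and CD44LowKitNeg, 9 of the 37 ribosome biogenesis genes fell and none rose at an adjusted p under 0.01 (quasi-likelihood fit of edgeR, Benjamini-Hochberg adjusted over 11022 genes), the threshold for a call throughout, where 5.23% of all genes tested fell and 4.94% rose. The log2 fold change was below 0 for 36 members, against 49.8% of all genes, and its median was −0.80 over the members and 0.01 over all genes. At an unadjusted p under 0.05 there were 27 members (32.6% of all genes), and at an adjusted p under 0.05 there were 16 (20.1% of all genes). In 3 members every CD44LowKitNeg library lay below every CD44Neg library, which held for 3.08% of all genes. The genes that fell were *Nolc1*, *Fbl*, *Nop56*, *Nhp2*, *Bysl*, *Nop2*, *Nop16*, *Pes1* and *Mrto4*. Only *Gar1* lay above 0 (log2 0.16 ± 0.36 SE, adjusted p = 0.817), at a low level of 17.4 ± 5.17 normalized CPM (n = 10) in CD44Neg and 19.3 ± 10.4 (n = 6) in CD44LowKitNeg.

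**Figure D1:**
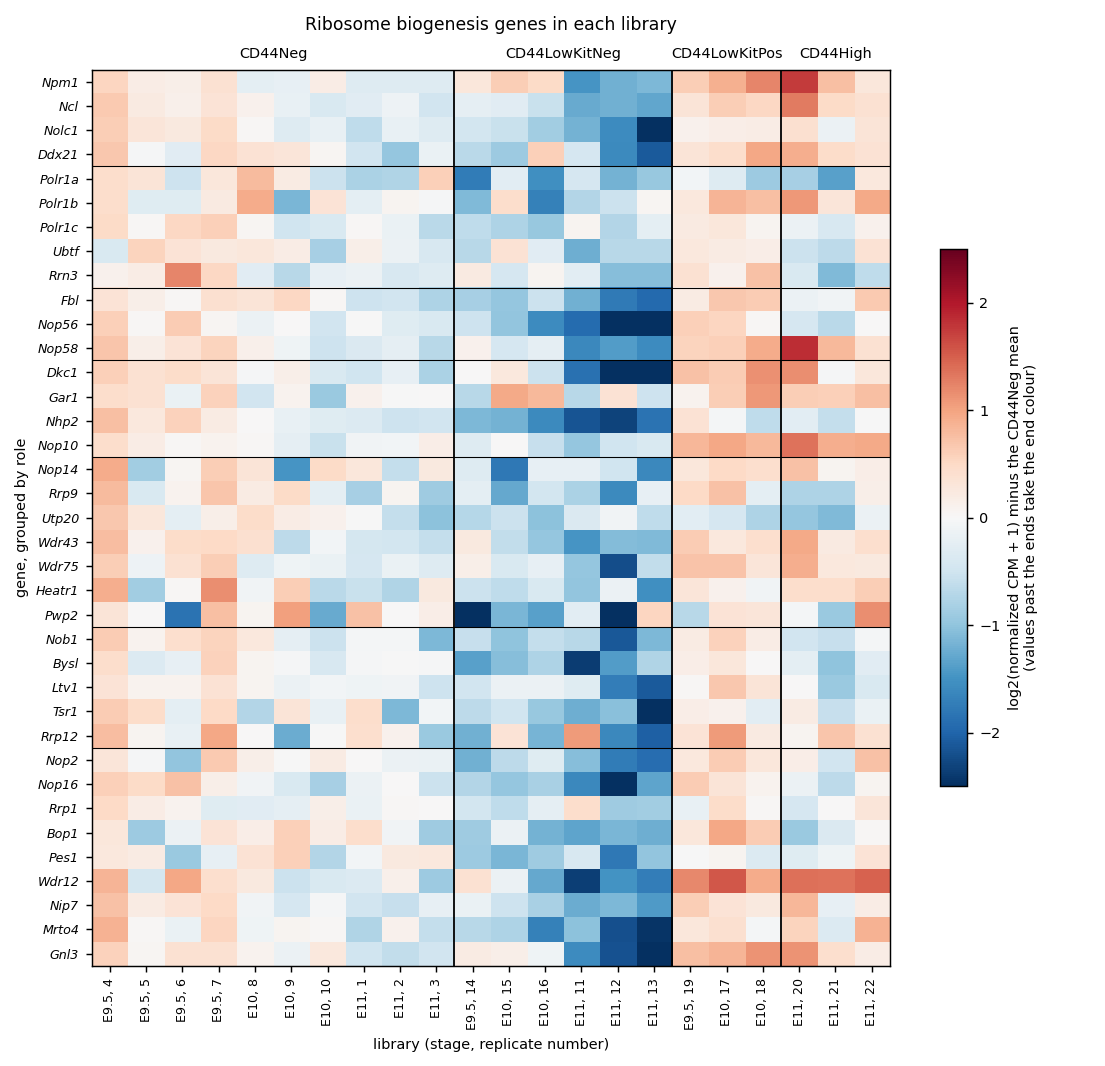
Each row is 1 of the 37 members, grouped by role as in the text, and each column 1 of the 22 libraries, ordered by population and stage. Colour gives log2(normalized CPM + 1) minus the mean of the 10 CD44Neg libraries, blue for lower and red for higher, with the scale ending at 2.5 in either direction. The CD44LowKitNeg columns are mostly blue, most strongly in the 3 from E11, and the CD44LowKitPos columns are mostly red.

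Box C/D snoRNP proteins had the lowest median of any role, −1.23, and *Nhp2* and *Nop56* the largest log2 fold changes of the 37. *Nhp2* ranged over 247 to 594 normalized CPM (median 332) in the 10 CD44Neg libraries and over 69.9 to 161 normalized CPM (median 107) in the 6 CD44LowKitNeg libraries, so the populations did not overlap. Its log2 fold change was −1.70 ± 0.24 SE, adjusted p = 7.6e-05 in edgeR's test. *Nop56*, the scaffold on which box C/D snoRNPs are built, ranged over 289.6 to 625 normalized CPM (median 402) and over 50.3 to 283 normalized CPM (median 120.3), again without overlap, and fell by 1.56 on the log2 scale (SE 0.31, adjusted p = 0.00122). *Fbl*, the methyltransferase of the same particles, went from 37.3 ± 10.7 to 15.9 ± 6.03 normalized CPM (log2 −1.23 ± 0.30 SE, adjusted p = 0.00646), with overlapping ranges. Of the other snoRNP proteins, *Nop58* (−0.75), the pseudouridine synthase *Dkc1* (−0.89) and *Nop10* (−0.45) did not pass the threshold.

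Among the small subunit factors, *Bysl*, which acts late in the maturation of the subunit, was called and did not overlap. It ranged over 45.7 to 90.98 normalized CPM (median 59.4) in CD44Neg and over 10.9 to 35.5 normalized CPM (median 25.9) in CD44LowKitNeg (log2 −1.25 ± 0.25 SE, adjusted p = 0.00149). The other 4 late factors, *Nob1*, *Ltv1*, *Tsr1* and *Rrp12*, had log2 fold changes from −0.50 to −1.20, and *Nob1*, the endonuclease that trims the small subunit rRNA, was closest to the threshold (adjusted p = 0.0107). None of the 7 processome genes was called, although all 7 log2 fold changes were below 0, from −1.16 to −0.59. The smallest adjusted p among them was that of *Wdr43*, which ranged over 142 to 382 normalized CPM (median 229) and over 80.8 to 267 normalized CPM (median 110.0) and overlapped widely (log2 −0.80 ± 0.27 SE, adjusted p = 0.0408).

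Of the 9 large subunit factors, 4 fell and all 9 log2 fold changes were below 0, with a median of −1.01. *Mrto4*, which helps to build the stalk of the large subunit, ranged over 57.8 to 181 normalized CPM (median 99.5) in CD44Neg and over 17.2 to 60.2 normalized CPM (median 38.7) in CD44LowKitNeg (log2 −1.41 ± 0.30 SE, adjusted p = 0.00241). The ranges overlapped by a few CPM. *Nop16* (−1.30), the rRNA methyltransferase *Nop2* (−1.10) and *Pes1* (−1.04) had adjusted p-values of 0.00258, 0.00626 and 0.00546. *Bop1* (−1.01, adjusted p = 0.0102) and *Wdr12* (−0.92, adjusted p = 0.0956), which form a complex with *Pes1*, did not pass. The remaining factors, *Nip7*, *Gnl3* and *Rrp1*, lay at −0.88, −0.69 and −0.37.

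The nucleolar chaperones were uneven. *Nolc1*, a chaperone of snoRNPs, ranged over 76.3 to 182 normalized CPM (median 114) in CD44Neg and over 16.7 to 86.5 normalized CPM (median 58.5) in CD44LowKitNeg (log2 −1.11 ± 0.29 SE, adjusted p = 0.00888), with overlap, whereas *Npm1* was not called over all stages (log2 −0.18 ± 0.28 SE, adjusted p = 0.719). *Ncl*, nucleolin, was at −0.77 (adjusted p = 0.0117) and the helicase *Ddx21* at −0.67 (adjusted p = 0.175). None of the 5 RNA polymerase I genes was called. *Polr1a*, the largest subunit, came nearest, with 16.7 to 52.1 normalized CPM (median 35.4) against 8.11 to 24.7 normalized CPM (median 13.7) (log2 −1.06 ± 0.35 SE, adjusted p = 0.0362), and the other 4 had log2 fold changes from −0.56 to −0.44.

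Most members lay below 0 in both age groups. In the E11 libraries alone (3 against 3), 4 members fell (3.41% of all genes were called in either direction) and the median log2 fold change of the 37 was −0.83. The 4 were *Nhp2* (log2 −1.60, adjusted p = 0.00215), *Nop56* (log2 −2.13, adjusted p = 0.00248), *Npm1* (log2 −0.88, adjusted p = 0.00333) and *Ncl* (log2 −0.92, adjusted p = 0.00597). In the E9.5 and E10 libraries alone, with stage as a covariate (3 against 7), only *Nhp2* was called (log2 −1.33, adjusted p = 0.00141), where 4.15% of all genes were, so that 1 of 37 was no larger a share than that of all genes. The median was −0.71. *Nop56* was just short of the threshold there (log2 −0.94, adjusted p = 0.0112), and *Npm1* lay on the other side of 0 (log2 0.43, adjusted p = 0.119). With stage as a covariate over all 16 libraries, 12 members fell and 11.9% of all genes were called. With 1 library left out, 5 to 12 fell, where 3.84% to 5.84% of all genes did. The 5 were without CD44Neg replicate 4, 8 or 9 or CD44LowKitNeg replicate 12 or 13 (3.84% to 4.57% of all genes).

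The proliferation markers were lower in CD44LowKitNeg than in CD44Neg at E10 and E11, as most members were, but not at E9.5. Their 8 genes summed to 571 to 837 normalized CPM in CD44LowKitNeg at E11, against 1416 to 2669.8 in CD44Neg. At E10 they summed to 1325 and 1893 against 1998 to 2237, and at E9.5 to 2896 against 2271 to 2669.7. Of the 8 markers, 3 fell between the populations over all stages. Their part in the result was not tested. Macrophage markers summed to at most 16.95 in CD44Neg and 40.2 normalized CPM in CD44LowKitNeg. Blood markers summed to at most 42.3 and 295, with 1 of the 5 tested called higher, and 2 of 8 endothelial markers were called higher.

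*Myc* ranged over 53.9 to 121 normalized CPM (median 107) in CD44Neg and over 13.01 to 39.1 normalized CPM (median 25.2) in CD44LowKitNeg, without overlap (log2 −1.97 ± 0.24 SE, adjusted p = 1.7e-05). *Mycn*, a relative of *Myc*, was not called over all stages (log2 0.10 ± 0.59 SE, adjusted p = 0.936). At E11 it was at 3.76, 4.53 and 6.82 normalized CPM in CD44LowKitNeg against 33.4, 40.7 and 47.9 in CD44Neg, and it fell in the E11 libraries alone (log2 −2.95, adjusted p = 0.0082). In the E9.5 and E10 libraries it was at 95.05, 130.2 and 111 against 32.03 to 95.3 in CD44Neg, with overlap and not called (log2 0.90, adjusted p = 0.0938). Of 145 other genes of the pathway, from lists that are not independent of earlier results of these data, 25 fell and 1 rose, where 5.23% of all genes fell and 4.94% rose. Of 48 further processome genes 8 fell, of 50 further large subunit genes 10, of 14 RNA exosome genes 3, of 8 snoRNP assembly genes 2, of 16 further RNA polymerase I genes 2, and of 9 host genes of small nucleolar RNAs none. The only rise among these 145 genes was that of *Polr2k* (log2 0.95 ± 0.22 SE, adjusted p = 0.00501), a subunit that RNA polymerases I, II and III share. Their smallest adjusted p-values were those of *Imp4* (log2 −1.49 ± 0.23 SE, adjusted p = 1.4e-04) and *Tbl3* (log2 −1.10 ± 0.17 SE, adjusted p = 1.7e-04), both of the small subunit processome.

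**Figure D2:**
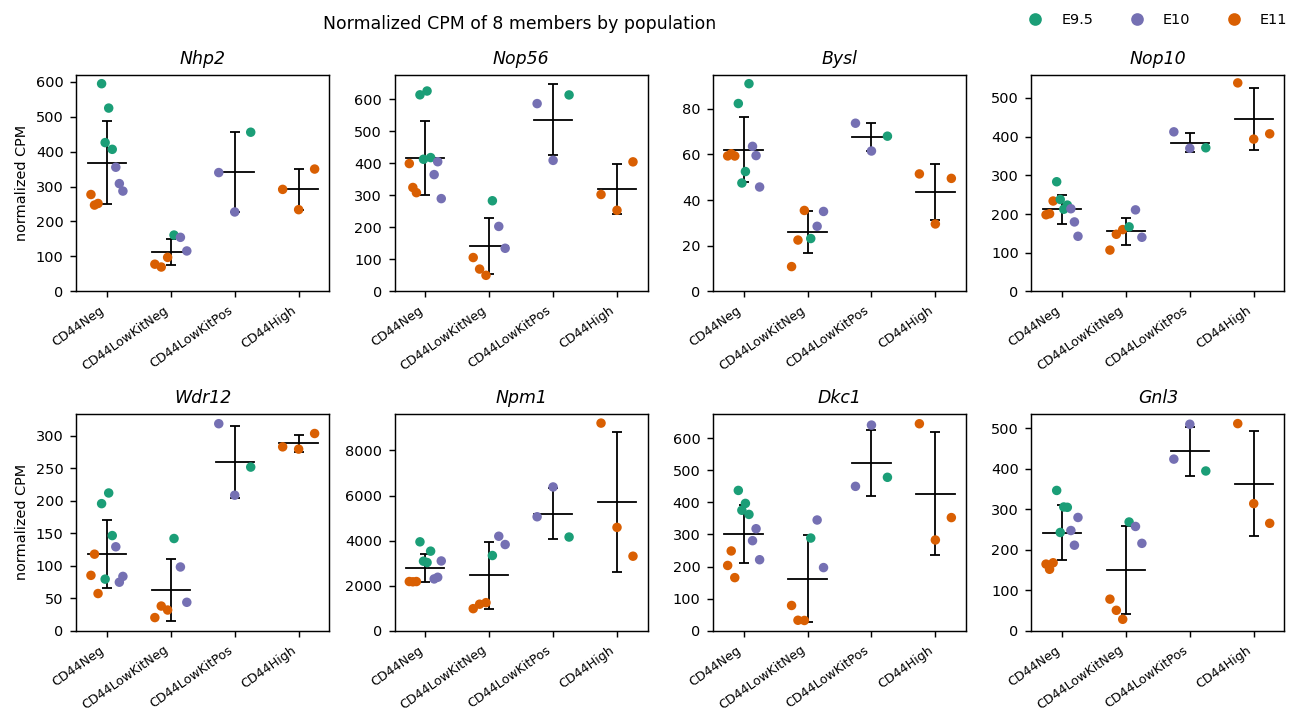
Normalized CPM of 8 members in each of the 22 libraries by population, coloured by stage, with the mean and SD of each population in black and the axis starting at 0. *Nhp2*, *Nop56* and *Bysl* in CD44LowKitNeg lie below every CD44Neg library, the means of *Nop10* and *Wdr12* are highest in CD44LowKitPos and CD44High, and the E11 libraries of *Npm1*, *Dkc1* and *Gnl3* form the low end of CD44LowKitNeg.

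In CD44LowKitPos, the population sorted as positive for CD44 and Kit, 12 of the 37 members were higher than in CD44LowKitNeg and none was lower over all stages (edgeR's quasi-likelihood test over 12949 genes and 22 libraries), where 2.55% of all genes rose and 1.71% fell. All 37 log2 fold changes were above 0, against 48.5% of all genes, with a median of 1.17 over the members and −0.02 over all genes. In 24 members every CD44LowKitPos library lay above every CD44LowKitNeg library, which held for 9.55% of all genes. At an adjusted p under 0.05 there were 20 members (12.5% of all genes). In the E9.5 and E10 libraries alone, the stages that both populations hold, no member was called. This comparison and the previous one share the CD44LowKitNeg libraries.

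*Nop10*, a core protein of the box H/ACA snoRNPs, had the smallest adjusted p. It was at 412, 369.8 and 371 normalized CPM in CD44LowKitPos replicates 17, 18 and 19 and ranged over 107 to 211 normalized CPM (median 154) in CD44LowKitNeg (log2 1.31 ± 0.20 SE, adjusted p = 4.5e-04). *Nop56* was at 586, 409 and 613 normalized CPM, against 50.3 to 283 normalized CPM (median 120.3) (log2 1.92 ± 0.36 SE, adjusted p = 0.00194). The 3 CD44LowKitPos libraries lay above all 6 CD44LowKitNeg libraries for both. *Nhp2* (log2 1.59 ± 0.30 SE, adjusted p = 0.00194) and *Fbl* (log2 1.70 ± 0.35 SE, adjusted p = 0.00382) did not overlap either.

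*Wdr12*, a partner of *Bop1* and *Pes1* in large subunit assembly, showed the largest log2 fold change, with 319, 209 and 252 normalized CPM in CD44LowKitPos against 20.3 to 142 normalized CPM (median 40.9) in CD44LowKitNeg (log2 2.06 ± 0.45 SE, adjusted p = 0.00507). *Bop1* was at 130.3, 103 and 80.96, against 25.9 to 59.2 normalized CPM (median 28.95) (log2 1.61 ± 0.33 SE, adjusted p = 0.00343). Neither overlapped. The other called large subunit factors were *Nop16* (1.59, adjusted p = 0.00435), *Mrto4* (1.57, 0.0077), *Nop2* (1.46, 0.00677) and *Nip7* (1.23, 0.00976), all without overlap. *Pes1* was at 0.90 (adjusted p = 0.0526).

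*Ncl* was at 1256, 1166 and 1022 normalized CPM in CD44LowKitPos against 331 to 698 normalized CPM (median 455) (log2 1.22 ± 0.27 SE, adjusted p = 0.00531), and *Bysl* at 73.7, 61.5 and 67.99 against 10.9 to 35.5 normalized CPM (median 25.9) (log2 1.38 ± 0.30 SE, adjusted p = 0.00531). Both were free of overlap. No processome gene passed the threshold, with *Wdr43* nearest (log2 1.17 ± 0.33 SE, adjusted p = 0.0227) and *Utp20* at 0.06. Among the RNA polymerase I genes, where 0 of 5 were called, *Polr1b*, the second largest subunit, came nearest at 40.3, 37.5 and 26.4 normalized CPM against 6.09 to 30.04 normalized CPM (median 13.8) (log2 1.12 ± 0.44 SE, adjusted p = 0.0989). *Myc* was at 107, 89.2 and 92.9 (log2 1.92 ± 0.26 SE, adjusted p = 1.4e-04). *Mycn* was at 223, 338 and 219, above every CD44LowKitNeg library but not called (log2 2.15 ± 0.81 SE, adjusted p = 0.0808). In the lists of other pathway genes 25 of 145 rose and none fell, where 2.55% of all genes rose, with a median of 0.89, among them 8 of 48 processome genes and 8 of 50 large subunit genes.

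The 2 populations were sampled at different stages, since CD44LowKitPos has no library from E11. In the 3 against 3 libraries from E9.5 and E10, no member was called by edgeR, but only 2 of the 11059 genes tested were (0.0181%). The 37 log2 fold changes were again all above 0 there, with a median of 0.87 over the members and −0.01 over all genes. *Nop10* was at 1.12 (adjusted p = 0.0637) and *Nop56* at 1.37 (adjusted p = 0.0627) in these libraries. With stage as a covariate 9 members rose, where 2.83% of all genes were called in either direction. Over all stages, without CD44LowKitPos replicate 17 the number was 1 (0.355% of all genes rose), without replicate 18 it was 3 (0.909%) and without replicate 19 it was 6 (1.68%). It was also 6 without CD44LowKitNeg replicate 11, 12 or 13 (1.35% to 1.44%), and 7 without CD44Neg replicate 5 or 8 (1.60% and 1.66%). The CD44Neg libraries enter this fit through the filter, the scaling and the estimate of the spread. Blood markers summed to 499 to 1418 normalized CPM in CD44LowKitPos and to 7.28 to 295 in CD44LowKitNeg, and endothelial markers to 766 to 1854 against 3723 to 8666. None of the 8 proliferation markers was called, and their log2 fold changes were 0.13 to 1.33. The part of these markers in the result was not tested.

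**Figure D3:**
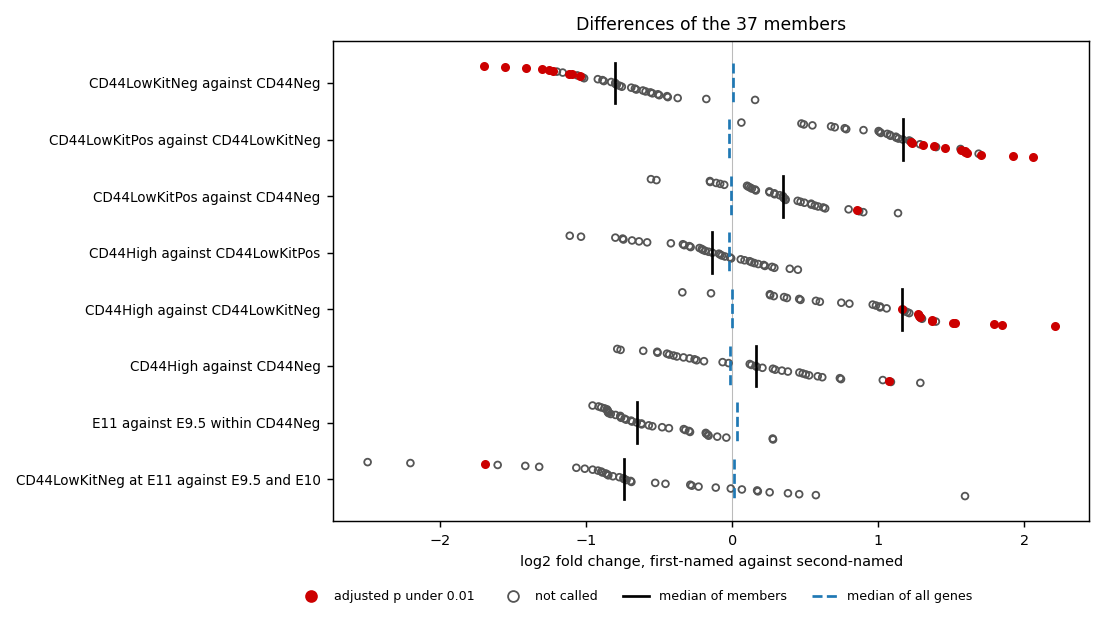
Log2 fold changes of the 37 members in 8 comparisons, 1 circle per gene, filled red at an adjusted p under 0.01, with the median of the members as a black bar and that of all genes tested as a dashed blue bar. The members lie to the left of 0 in CD44LowKitNeg against CD44Neg (median −0.80), to the right in both comparisons of a later population with CD44LowKitNeg (1.17 and 1.16), and on both sides of 0 in CD44High against CD44LowKitPos (−0.14, and 0.33 with stage as a covariate).

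Set against CD44Neg, 1 member was called in CD44LowKitPos. *Nop10* was at 412, 369.8 and 371 normalized CPM, above the CD44Neg range of 143 to 283 normalized CPM (median 213) (log2 0.85 ± 0.19 SE, adjusted p = 0.00512), where 2.08% of all genes rose and 1.41% fell, so the members' share was close to that of all genes. In 4 members every CD44LowKitPos library lay above every CD44Neg library (5.29% of all genes). The median over the members was 0.35, with 30 of 37 above 0 (48.8% of all genes). *Npm1* was at 5058, 6379.6 and 4158 normalized CPM and did not overlap with CD44Neg at 2172 to 3946 normalized CPM (median 2701), but its adjusted p was 0.125 (0.90, SE 0.35). In the other roles the smallest adjusted p-values were those of *Wdr12* (log2 1.14 ± 0.41 SE, adjusted p = 0.0955), *Nop58* (log2 0.64 ± 0.34 SE, adjusted p = 0.304), *Wdr75* (log2 0.54 ± 0.31 SE, adjusted p = 0.352), *Polr1b* (log2 0.57 ± 0.41 SE, adjusted p = 0.497) and *Ltv1* (log2 0.35 ± 0.31 SE, adjusted p = 0.607). In the E9.5 and E10 libraries alone, *Nop10* was again the 1 member called (log2 0.96, adjusted p = 0.00641), where 2.78% of all genes were. *Nop10* lost its call without CD44Neg replicate 8 or any 1 of the CD44LowKitPos libraries. *Mycn* lay above every CD44Neg library and was called in the E9.5 and E10 libraries alone (log2 2.10, adjusted p = 0.00266) but not over all stages (log2 2.25 ± 0.71 SE, adjusted p = 0.0526). Blood markers summed to 499 to 1418 normalized CPM in CD44LowKitPos against 6.69 to 42.3 in CD44Neg, with 6 of 8 called higher, and endothelial markers to 766 to 1854 against 3518.5 to 5924, with 3 of 8 called lower. Their part in the result was not tested.

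In CD44High, 11 members were higher than in CD44LowKitNeg and none was lower, where 7.79% of all genes rose and 8.17% fell. The median was 1.16 and 35 of 37 log2 fold changes lay above 0 (49.7% of all genes). At an adjusted p under 0.05 there were 21 members (26.8% of all genes), and 14 did not overlap (13.6%). *Nop10* was at 539, 394 and 407 normalized CPM in replicates 20, 21 and 22 (log2 1.52 ± 0.20 SE, adjusted p = 5.9e-06). *Wdr12* was at 283, 279.6 and 304 (log2 2.21 ± 0.45 SE, adjusted p = 6.9e-04) and *Ncl* at 2002, 1136 and 1068 (log2 1.51 ± 0.27 SE, adjusted p = 1.7e-04). All 3 lay above every CD44LowKitNeg library. *Nop58*, the partner of *Nop56* in the box C/D snoRNPs, was at 911, 447 and 328 normalized CPM against 82.5 to 272 normalized CPM (median 142) (log2 1.85 ± 0.37 SE, adjusted p = 5.3e-04).

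*Mrto4* (1.79, adjusted p = 7.5e-04), *Nhp2* (1.37, 0.00132), *Fbl* (1.36, 0.00592) and *Nolc1* (1.28, 0.00671) were called without overlap by edgeR's test. *Wdr43*, with 435, 263 and 301 normalized CPM (log2 1.29 ± 0.33 SE, adjusted p = 0.00549), *Nop2* (1.27, 0.00633) and *Nip7* (1.16, 0.00566) were called with overlap. Of the late small subunit factors and the RNA polymerase I genes none was called, with *Bysl* (log2 0.75 ± 0.31 SE, adjusted p = 0.0774) and *Polr1b* (log2 1.30 ± 0.44 SE, adjusted p = 0.032) nearest. *Myc* was at 172, 172 and 189 normalized CPM (log2 2.81 ± 0.27 SE, adjusted p = 5.2e-08), and *Mycn* at 8.51, 9.05 and 0 was not called (log2 −3.30 ± 1.03 SE, adjusted p = 0.0198), and within E11 its direction turned (log2 0.11, adjusted p = 0.965). Of the 145 other pathway genes 32 rose, where 7.79% of all genes rose, with a median of 0.80.

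Within E11, the stage both populations share, 10 members rose (3 libraries against 3, where 10.3% of all genes were called in either direction), and the median was 1.39. *Wdr12* (log2 3.13, adjusted p = 6.6e-04), *Dkc1* (log2 3.05, adjusted p = 0.00411), *Gnl3* (log2 2.68, adjusted p = 0.00478) and *Nop58* (log2 2.57, adjusted p = 0.00407) were furthest apart there. With stage as a covariate over all libraries 18 members were called (19.5% of all genes). CD44High replicate 20 had the highest mesenchymal, neural and erythroid marker sums of all libraries, at 174, 10.5 and 91.8 normalized CPM. Its macrophage sum was 1094, against 2980.2 and 2756 in replicates 21 and 22. Without CD44High replicate 20, whose *Npm1*, *Ncl* and *Nop58* were the highest of all libraries, the number over all stages was 3 (4.52% of all genes rose), and without replicate 22 it was 4 (4.26%). It was 6 without CD44Neg replicate 5 or 8 or CD44LowKitNeg replicate 11 or 12 (at least 6.25% of all genes rose in each), and 7 without CD44LowKitNeg replicate 13 (6.35%). The macrophage markers, whose sums were 1094 to 2980.2 normalized CPM in CD44High and 0 to 40.2 in CD44LowKitNeg, were all called higher, the 8 endothelial markers were all called lower, and 4 of 8 proliferation markers were called higher. The part of these markers in the result was not tested.

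Against CD44LowKitPos, no member was called in CD44High by edgeR (0.780% of all genes rose and 2.23% fell), and DESeq2's Wald test called none either (5.78% of all genes given an adjusted p). By edgeR 2 members had an unadjusted p under 0.05 (17.8% of all genes). They were *Rrn3*, with 93.2, 55.9 and 77.8 normalized CPM against 131, 203 and 157 (log2 −1.11 ± 0.42 SE, adjusted p = 0.134), and *Bop1*, with 34.4, 51.4 and 67.7 against 130.3, 103 and 80.96 (log2 −1.03 ± 0.40 SE, adjusted p = 0.143). Neither overlapped. In all, 7 members lay lower and 1 higher without overlap, where 23.9% of all genes did not overlap. The median over the members was −0.14, but 0.33 with stage as a covariate. The smallest adjusted p in each other role belonged to *Ltv1* (log2 −0.75 ± 0.39 SE, adjusted p = 0.331), *Rrp9* (log2 −0.80 ± 0.46 SE, adjusted p = 0.394), *Nop56* (log2 −0.74 ± 0.44 SE, adjusted p = 0.401), *Ncl* (log2 0.29 ± 0.32 SE, adjusted p = 0.745) and *Nop10* (log2 0.22 ± 0.24 SE, adjusted p = 0.75). Without CD44High replicate 20, *Ncl* turned to −0.15 and *Nop10* to −0.034. No stage holds both populations, so population and stage cannot be told apart. The macrophage markers moved here too, with sums of 17.7 to 22.3 normalized CPM in CD44LowKitPos and 4 of 7 called higher in CD44High, and all 8 endothelial markers were called lower. Their part was not tested. *Myc* was at 172, 172 and 189 normalized CPM in CD44High and at 107, 89.2 and 92.9 in CD44LowKitPos, without overlap but not called (log2 0.88 ± 0.32 SE, adjusted p = 0.114). *Mycn* fell, from 223, 338 and 219 in CD44LowKitPos to 8.51, 9.05 and 0 in CD44High (log2 −5.46 ± 1.19 SE, adjusted p = 0.00484). It was not called with stage as a covariate (log2 −3.48, adjusted p = 0.0582), nor without CD44LowKitPos replicate 18 or any 1 of the CD44High libraries (adjusted p = 0.0132 to 0.0234 by edgeR).

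Against CD44Neg, the only member that rose in CD44High was *Nop10* (log2 1.07 ± 0.19 SE, adjusted p = 1.3e-04), where 7.14% of all genes rose and 7.25% fell, so that the members' share was below that of all genes. At an adjusted p under 0.05 there were 5 (22.5% of all genes), and 3 lay higher without overlap (9.64%). The lowest CD44High library for *Nop10*, at 394 normalized CPM, lay above the highest CD44Neg library, at 283. The median over the members was 0.16, with 21 of 37 above 0, and it was −0.22 without CD44High replicate 22. In the other roles, *Nop58* (log2 1.09 ± 0.33 SE, adjusted p = 0.019), *Wdr12* (log2 1.29 ± 0.41 SE, adjusted p = 0.0226), *Npm1* (log2 1.03 ± 0.34 SE, adjusted p = 0.0316), *Utp20* (log2 −0.76 ± 0.34 SE, adjusted p = 0.116), *Rrn3* (log2 −0.79 ± 0.35 SE, adjusted p = 0.117) and *Bysl* (log2 −0.51 ± 0.30 SE, adjusted p = 0.248) had the smallest adjusted p-values. In the E11 libraries alone, 9.65% of all genes and 1 member were called, *Wdr12* (log2 1.68, adjusted p = 0.00542), and *Nop10* was not (log2 1.03, adjusted p = 0.0161). With stage as a covariate, 9 members rose (14.6% of all genes were called), and without CD44High replicate 20 none did over all stages (4.42% of all genes rose). All 7 macrophage markers and 6 of 8 blood markers were called higher in CD44High here, and all 8 endothelial markers lower. The proliferation markers summed to 2962 to 3500.2 normalized CPM against 1416 to 2669.8, with none of the 8 called. The part of these markers in the result was not tested. Neither *Myc* (log2 0.82 ± 0.24 SE, adjusted p = 0.0151) nor *Mycn* (log2 −3.20, adjusted p = 0.0218 by edgeR) was called here.

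Within CD44Neg, 35 of the 37 members had a log2 fold change below 0 at E11 against E9.5, but none was called by edgeR's test (3 libraries against 4, over 11250 genes), where 0.293% of all genes fell and 0.391% rose. The median over the members was −0.65 and that over all genes 0.03, where 48.1% of all genes lay below 0. At an unadjusted p under 0.05 there were 22 members (17.1% of all genes), and in 17 every E11 library lay below every E9.5 library (10.6% of all genes). At an adjusted p under 0.05 there were 7 (3.13% of all genes). *Nhp2* was at 594, 425, 524 and 406 normalized CPM at E9.5, at 355, 308 and 287 at E10 and at 277, 247 and 251 at E11 (log2 −0.90 ± 0.17 SE, adjusted p = 0.0104 for E11 against E9.5). *Gnl3*, the GTPase nucleostemin, was at 347, 243, 306 and 305, then 248, 211 and 280.0 and then 165, 152 and 168 (log2 −0.87 ± 0.17 SE, adjusted p = 0.0144). For both genes all E11 libraries were below all E9.5 libraries.

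The other roles were led by *Npm1* (log2 −0.62 ± 0.13 SE, adjusted p = 0.0199), *Nop58* (log2 −0.85 ± 0.20 SE, adjusted p = 0.0316), *Wdr43* (log2 −0.96 ± 0.23 SE, adjusted p = 0.0369), *Rrn3* (log2 −0.85 ± 0.27 SE, adjusted p = 0.104) and *Nob1* (log2 −0.77 ± 0.29 SE, adjusted p = 0.182). DESeq2's Wald test called 9 members between these stages, where it called 3.90% of all genes given an adjusted p, and edgeR without the filter on low counts called 6 (1.81% of all genes). Over the same CD44Neg libraries, E10 against E9.5 gave no call by edgeR (0.0178% of all genes were called), with a median of −0.41 and 14 members at an unadjusted p under 0.05 (15.2% of all genes), and DESeq2's Wald test called 1 member (2.06% of all genes given an adjusted p). *Nop16* (log2 −0.90 ± 0.22 SE, adjusted p = 0.0599), *Nhp2* (log2 −0.61 ± 0.16 SE, adjusted p = 0.096), *Rrn3* (log2 −0.95 ± 0.27 SE, adjusted p = 0.108), *Ncl* (log2 −0.48 ± 0.16 SE, adjusted p = 0.173), *Nop58* (log2 −0.59 ± 0.20 SE, adjusted p = 0.176), *Wdr75* (log2 −0.59 ± 0.21 SE, adjusted p = 0.193) and *Nob1* (log2 −0.56 ± 0.29 SE, adjusted p = 0.379) led their roles.

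Between E11 and E10, neither edgeR nor DESeq2's Wald test called a member, and they called 0% of all genes tested and 0.402% of those given an adjusted p. The median was −0.21, and 4 members had an unadjusted p under 0.05 (8.68% of all genes). *Gnl3* (log2 −0.60 ± 0.18 SE, adjusted p = 0.379), *Fbl* (log2 −0.91 ± 0.31 SE, adjusted p = 0.45) and *Ddx21* (log2 −0.75 ± 0.30 SE, adjusted p = 0.505) had the smallest adjusted p-values of their roles, followed by *Utp20* (log2 −0.76 ± 0.35 SE, adjusted p = 0.56), *Dkc1* (log2 −0.40 ± 0.19 SE, adjusted p = 0.579), *Ltv1* (log2 −0.17 ± 0.19 SE, adjusted p = 0.886) and *Polr1a* (log2 −0.41 ± 0.48 SE, adjusted p = 0.901). These stage comparisons share libraries. The 8 proliferation markers gave no call in any of them, and 3 of 8 endothelial markers were called higher at E11 than at E9.5.

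The 3 CD44LowKitNeg libraries from E11 stood low for several members, and the comparison with the 3 from E9.5 and E10 was added after this was seen. *Npm1* was at 981, 1178 and 1247 normalized CPM at E11, at 3339 at E9.5 and at 4194 and 3826 at E10, and was the 1 member called (log2 −1.69 ± 0.17 SE, adjusted p = 0.00696), where 0.0636% of all genes fell and 0.109% rose. At an adjusted p under 0.05 there were 5 members (2.13% of all genes), and 16 lay lower at E11 without overlap (13.4%). Over the same embryonic days, CD44Neg was at 3946, 3085, 3028 and 3532 at E9.5, at 2299, 2374 and 3097 at E10 and at 2184, 2172 and 2183 at E11. The lowest *Npm1* of all 22 libraries was thus in CD44LowKitNeg at E11. *Npm1* lost this call without any 1 of the 6 libraries, with an adjusted p of up to 0.0601.

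*Dkc1* was at 78.8, 32.7 and 32.1 normalized CPM at E11 and at 289, 345 and 197 in the 3 earlier libraries (log2 −2.49 ± 0.41 SE, adjusted p = 0.0219). *Gnl3* was at 78.1, 50.6 and 28.3 and at 269, 258 and 216 (log2 −2.20 ± 0.36 SE, adjusted p = 0.0222). Neither overlapped. In the other roles *Nop58* (log2 −1.32 ± 0.24 SE, adjusted p = 0.0311), *Wdr43* (log2 −0.82 ± 0.34 SE, adjusted p = 0.263), *Rrn3* (log2 −0.69 ± 0.32 SE, adjusted p = 0.328) and *Ltv1* (log2 −0.89 ± 0.45 SE, adjusted p = 0.375) were nearest to the threshold. The members' median was −0.74, while RNA polymerase I genes had a median of 0.18 and processome genes one of −0.11. The proliferation markers had a median of −1.29, none of them called, and *Mycn* fell (log2 −4.43 ± 0.40 SE, adjusted p = 0.00533) from 95.05, 130.2 and 111 normalized CPM to 3.76, 4.53 and 6.82. It lost this call without any 1 of the 6 libraries (adjusted p = 0.0133 to 0.0508 by edgeR). The summed levels of other markers also differed. Blood markers summed to 7.28 to 20.03 normalized CPM at E11 against 84.3 to 295 earlier (1 of 6 tested called lower), endothelial markers to 7229.5 to 8666 against 3723 to 5004, mesenchymal markers to 26.6 to 59.6 against 2.03 to 5.56 and erythroid markers to 32.2 to 61.3 against 13.8 to 31.9, with no call in the last 3 lists. Macrophage markers overlapped, at 0 to 9.95 against 0.541 to 40.2. The part of *Mycn* or of any of these markers in the result was not tested.

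CD44Neg at E11 against E9.5 and E10 together, added at the same time, gave no call by edgeR (0.00889% of all genes) and 1 by DESeq2's Wald test (3.21% of the 2526 genes given an adjusted p), with 13 members at an unadjusted p under 0.05 (10.6% of all genes) and a median of −0.43. *Gnl3* (log2 −0.76 ± 0.18 SE, adjusted p = 0.109), *Dkc1* (log2 −0.72 ± 0.21 SE, adjusted p = 0.217), *Fbl* (log2 −0.87 ± 0.28 SE, adjusted p = 0.288), *Wdr43* (log2 −0.76 ± 0.25 SE, adjusted p = 0.291), *Npm1* (log2 −0.47 ± 0.16 SE, adjusted p = 0.301), *Nob1* (log2 −0.55 ± 0.30 SE, adjusted p = 0.556) and *Rrn3* (log2 −0.52 ± 0.33 SE, adjusted p = 0.644) led their roles.

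Whether the difference between the endothelial populations depended on stage was tested as an interaction. From E10 to E11 (11 libraries), edgeR called none of the 37 members (0.00806% of all genes), 7 had an unadjusted p under 0.05 (10.7%) and 1 an adjusted p under 0.05 (0.185%). DESeq2's Wald test called 2, where it called 1.15% of all genes given an adjusted p. By edgeR *Npm1* came nearest, with an interaction of −1.58 ± 0.22 SE, adjusted p = 0.0116, followed by *Dkc1* (log2 −2.11 ± 0.51 SE, adjusted p = 0.157) and *Gnl3* (log2 −1.58 ± 0.44 SE, adjusted p = 0.201). The other roles had *Nop58* (log2 −0.95 ± 0.32 SE, adjusted p = 0.302), *Utp20* (log2 1.18 ± 0.60 SE, adjusted p = 0.513), *Rrn3* (log2 −0.70 ± 0.43 SE, adjusted p = 0.6) and *Ltv1* (log2 −0.86 ± 0.56 SE, adjusted p = 0.626). With E9.5 and E10 combined, an interaction added after the values were seen, again none was called by edgeR (0.141% of all genes) and 2 by DESeq2 (0.923% of all genes given an adjusted p), and 1 had an adjusted p under 0.05 in edgeR's fit (0.331% of all genes). *Npm1* (log2 −1.25 ± 0.24 SE, adjusted p = 0.0196), *Dkc1* (log2 −1.80 ± 0.42 SE, adjusted p = 0.0742) and *Gnl3* (log2 −1.46 ± 0.36 SE, adjusted p = 0.0886) again came nearest. *Nop56* (log2 −1.08 ± 0.41 SE, adjusted p = 0.302), *Utp20* (log2 1.18 ± 0.47 SE, adjusted p = 0.342), *Polr1c* (log2 0.95 ± 0.43 SE, adjusted p = 0.43) and *Ltv1* (log2 −0.58 ± 0.44 SE, adjusted p = 0.71) led the other roles.

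*Rn45s* took 1.92% to 23.9% of the counts of a library. The widest exact binomial 95% interval, which covers counting error only, was the 23.8% to 23.9% of CD44High replicate 22. The reverse transcription was primed with oligo-dT, so the share was read as a property of the library and not as its content of ribosomal RNA. It was 17.3%, 15.2% and 17.9% in CD44Neg at E11, 9.94%, 13.8%, 1.92% and 13.2% at E9.5 and 19.3%, 14.6% and 9.11% at E10. In CD44LowKitNeg it was 17.4%, 18.6% and 19.2% at E11, 7.29% at E9.5 and 9.71% and 11.1% at E10. CD44LowKitPos held 9.26%, 6.82% and 8.95%, and CD44High 16.6%, 22.1% and 23.9%.

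Set beside this, the 37 members together made up 0.298% to 1.47% of the counts. Their sum was 6384, 6422 and 5932 normalized CPM in CD44Neg at E11 and 3277, 2939.9 and 3067 in CD44LowKitNeg at E11, while the *Rn45s* shares of these 6 libraries lay between 15.2% and 19.2%. In CD44High, also at E11, the sums were 17432, 9848 and 9494. Among the 9 libraries from E11 the share thus ran from 15.2% to 23.9% while the sum ran from 2939.9 to 17432. CD44Neg replicate 6, which had the lowest share at 1.92%, had a sum of 9229, within the 8554 to 11489 of the 4 CD44Neg libraries from E9.5. Without *Npm1* and *Ncl*, the most abundant members, the sum was 1409 to 6263 over the 22 libraries.

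**Figure D4:**
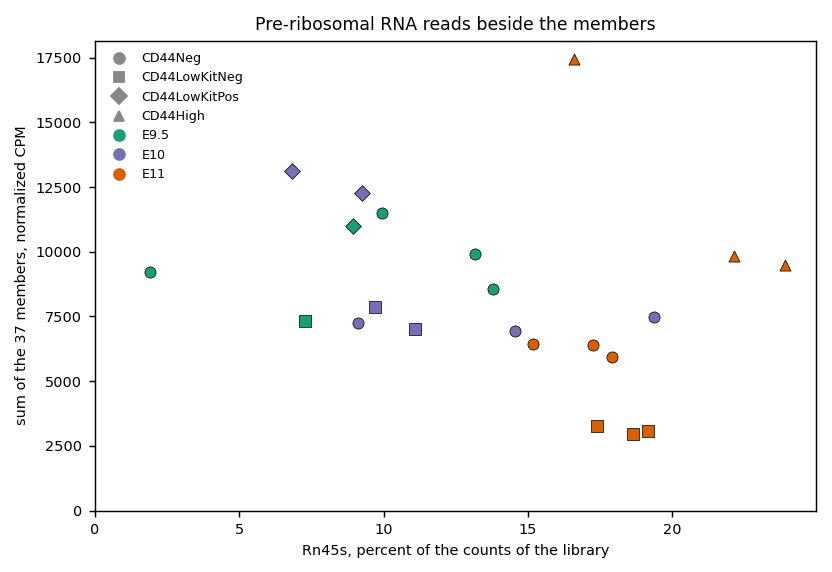
Share of *Rn45s* in the counts of each library (x axis, percent) against the summed normalized CPM of the 37 members (y axis), 1 point per library, with the population as the shape and the stage as the colour. The CD44LowKitPos libraries combine shares of 6.82% to 9.26% with sums of 10991 to 13132, the E11 CD44LowKitNeg libraries shares of 17.4% to 19.2% with sums of 2939.9 to 3277, and the CD44High libraries have the 2 highest shares and sums of 9494 to 17432.

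*Rn45s* itself was not called in the comparisons that follow. Its log2 fold change was 0.04 ± 0.33 SE, adjusted p = 0.955 in CD44LowKitNeg against CD44Neg, where 9 members fell, and its sign changed with stage as a covariate. It was −0.80 ± 0.44 SE, adjusted p = 0.245 in CD44LowKitPos against CD44LowKitNeg, where 12 members rose over all stages. In the E9.5 and E10 libraries alone, where none was called, it was −0.25, adjusted p = 0.47. It was 1.67 ± 0.50 SE, adjusted p = 0.0454 in CD44High against CD44LowKitPos, where no member was called. No stage holds both populations, so population and stage cannot be told apart here. Over all populations the mean *Rn45s* share was 18.7% at E11, against 9.18% at E9.5 and 11.4% at E10. In CD44LowKitNeg at E11 against the earlier libraries the log2 fold change of *Rn45s* was 1.03 ± 0.14 SE, adjusted p = 0.012. With *Rn45s* left out of the counts, 8 members were called between CD44LowKitNeg and CD44Neg, 11 between CD44LowKitPos and CD44LowKitNeg and 11 between CD44High and CD44LowKitNeg, against 9, 12 and 11 with it. Of all genes, 4.53% fell in the first of these fits, and 2.28% and 7.41% rose in the others.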

How the data were processed

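Polyadenylated RNA of 25 sorted cells per library was converted to cDNA with the SMART-Seq2 protocol and sequenced after a tagmentation step. The authors clipped adapters, ran RNA STAR for alignment to mm10 and htseq-count for counting over genes, and deposited 1 table of raw counts for 24454 gene symbols in 22 libraries. FastQC and HTSeq are named in the submitters' processing notes. Versions, the annotation, the strand setting and the treatment of multi-mapped reads are not given in the sources used here. Reads of copies and of overlapping genes may therefore be shared or lost, and the library preparation does not mark strand. No gene row was blank or a total.

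Groups came from the labels. Genes were kept by filterByExpr (minimum count 10, minimum total 15), scaled by TMM and tested with edgeR 4.0.16 in R 4.3.3 (glmQLFit and glmQLFTest, Benjamini-Hochberg adjustment over all genes kept, adjusted p under 0.01, fold changes with a prior count of 0.125, SE as the size of the log2 fold change over the square root of F). CD44LowKitNeg against CD44Neg was fitted on their 16 libraries, the other population comparisons on all 22, stages within CD44Neg on 10 and the interaction on 11. A member was named with full statistics where it had the smallest adjusted p of its role in a comparison, or was called with no overlap between the groups, or against the direction of most members. Of other pathway genes, those with the 3 smallest adjusted p in each direction were named among the calls of CD44LowKitNeg against CD44Neg alone, and *Rn45s*, *Myc*, *Mycn*, *Cd44* and *Kit* in any case. The lists were other RNA polymerase I, processome and large subunit genes, the exosome, snoRNP assembly, snoRNA hosts and the MYC network, and markers of endothelium, blood, macrophages, erythroid, mesenchymal and neural cells and proliferation. The members and lists were chosen with earlier results of these data known. Alternatives were DESeq2 1.42.0 (size factors and Wald test), no filter, *Rn45s* left out, stage as a covariate, libraries of 1 period alone, a threshold of 0.05 and each library left out. The fits were tested on simulated data. Intervals and limits of 0 counts cover counting error only. Tables and plots were made with Python 3.11.15, pandas 2.3.3, scipy 1.17.1 and matplotlib 3.10.9. Pseudogene copies were found with minimap2 2.31 and the GENCODE M21 annotation.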

Additional observations from a re-analysis of the deposited data

Results flagged for a closer look

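In 4 of the 76 combinations of a gene and a population with 4 to 10 libraries, 1 library stood apart from the others by Dixon's criterion, which chance meets in about 1 in 20 groups. The number flagged was close to that share. *Rrn3*, which brings RNA polymerase I to the rRNA genes, was at 285 normalized CPM in CD44Neg replicate 6, with the other 9 libraries at 74.9 to 174, and this library also had the lowest *Rn45s* share, 1.92%. *Rrp1*, a large subunit factor, was at 214 in CD44Neg replicate 4, with the others at 122.5 to 170.4. The processome gene *Wdr43* was at 267 in CD44LowKitNeg replicate 14, the only one of this population from E9.5, with the others at 80.8 to 146. *Bop1*, of the large subunit, was at 59.2 in CD44LowKitNeg replicate 15, with the others at 25.9 to 35.5.

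The difference of *Mycn* between CD44LowKitNeg and CD44Neg was lower at E11 than at E9.5 and E10 by an interaction term of −3.90 on the log2 scale (SE 0.52, adjusted p = 0.00102, edgeR's quasi-likelihood test), in a comparison added after the data were seen. With E10 as the only earlier stage, the interaction was −4.02 (SE 0.59, adjusted p = 0.0169, edgeR's quasi-likelihood test) and did not pass 0.01.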

How the results depend on the processing

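No paired analysis was possible because the replicate numbers run from 1 to 22 and no number is shared by 2 groups. The median of the members kept its sign under the alternatives run in every comparison but CD44High against CD44Neg and CD44High against CD44LowKitPos, and the number called moved as follows. CD44LowKitNeg against CD44Neg (9) gave 4 in the E11 libraries alone, 1 in those from E9.5 and E10 alone and 16 at an adjusted p under 0.05, and 5 to 12 with 1 library left out. CD44LowKitPos against CD44LowKitNeg (12) gave 0 in the E9.5 and E10 libraries alone, 20 at 0.05 and 1 to 14 with 1 library left out. CD44LowKitPos against CD44Neg (1) gave 0 to 1 with 1 left out. CD44High against CD44LowKitNeg (11) gave 18 with stage as a covariate, 21 at 0.05 and 3 to 12 with 1 left out. CD44High against CD44Neg (1) gave 2 by DESeq2's Wald test, 9 when stage was a covariate, 5 at 0.05 and 0 to 2 with 1 left out, the 2 without CD44LowKitNeg replicate 14. The share of all genes called by the Wald test is not given for this comparison, so the 2 by that test cannot be set against it. Within CD44Neg, E11 against E9.5 (0) gave 6 without the filter, 9 by the Wald test, 7 at 0.05 and 0 to 1 with 1 left out, the 1 without replicate 10, and E10 against E9.5 (0) gave 1 by the Wald test. The interaction with E10 (0) gave 3 without the filter, 2 by the Wald test, 1 at 0.05 and 0 to 1 with 1 left out, the 1 without CD44Neg replicate 10. The share of all genes called without the filter is not given for this interaction, so its 3 cannot be set against that share. Of the comparisons added later, CD44LowKitNeg at E11 against earlier (1) gave 3 without the filter, 6 by the Wald test, 5 at 0.05 and 0 to 0 with any 1 library left out, CD44Neg at E11 against earlier (0) gave 1 by the Wald test, and their interaction (0) gave 2 by the Wald test, 1 at 0.05 and 0 to 1 with 1 left out, the 1 without CD44LowKitNeg replicate 11. The cause of these shifts was not tested.

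The log2 fold change of *Rn45s* in CD44LowKitNeg against CD44Neg turned from 0.04 to −0.23 with stage as a covariate, to −0.42 in the E9.5 and E10 libraries alone, and to −0.067, −0.033, −0.071 and −0.080 without CD44Neg replicate 6 and CD44LowKitNeg replicates 11, 12 and 13, with a range of −0.080 to 0.19 over all libraries left out. In CD44High against CD44LowKitPos, *Ncl* turned to −0.15 and *Nop10* to −0.034 without CD44High replicate 20 (ranges −0.15 to 0.42 and −0.034 to 0.26 with 1 left out), and the median of the members was 0.33 with stage as a covariate. Against CD44Neg that median ran from −0.22 to 0.33 over the alternatives, below 0 without CD44High replicate 20 or 22. DESeq2's size factors moved the median of all genes to −0.16 in CD44LowKitPos against CD44LowKitNeg, with the members at 1.05. *Mycn* in CD44LowKitNeg against CD44Neg turned from 0.10 to −0.49 with stage as a covariate, to −2.95 in the E11 libraries alone and to −0.056, −0.27 and −0.18 without CD44LowKitNeg replicates 14, 15 and 16 (range −0.27 to 0.35 with 1 left out), and in CD44High against CD44LowKitNeg from −3.30 to 0.11 in the E11 libraries alone. Of 2862 values of named genes under an alternative, 2612 kept their direction and side of the threshold, 189 lost the call, 47 gained one and 14 changed sign. Over all genes the Wald test called 1746 against 1121, 1265 against 552, 829 against 451 and 716 against 390 in CD44LowKitNeg against CD44Neg and in CD44LowKitPos against CD44LowKitNeg, CD44LowKitPos against CD44Neg and CD44High against CD44LowKitPos, in this order. The *Rn45s* share without mitochondrial counts was not run, since the table analysed holds no such genes. Over the stages, edgeR without the filter and the Wald test called 279 and 429 genes against 77 (E11 against E9.5 in CD44Neg), 116 and 231 against 2 (E10 against E9.5), 24 and 45 against 0 (E11 against E10) and 163 and 558 against 19 (CD44LowKitNeg at E11 against earlier). Of the members, *Rrp12* had the lowest counts on average, with 9 to 145 per library.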
